A study of Mus musculus with 4 samples.

Results

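The genes described here encode the subunits of oxidative phosphorylation in leukocytes of injured mouse muscle. They were chosen by symbol alone. A nuclear gene was a member where its symbol began with Nduf followed by a subunit letter (a, b, c, s or v) and a digit, with Uqcr, with Atp5, or with Cox4 to Cox8, and a mitochondrially encoded gene where it began with mt-Nd, mt-Co, mt-Cyt or mt-Atp. Symbols ending in -ps were left out. The rule found 93 of the 27998 genes in the count tables, 80 of them nuclear and 13 on the mitochondrial genome. Of the nuclear members, 37 carried complex I symbols, 8 complex III, 18 complex IV and 17 complex V symbols. The mitochondrial members were 7 complex I genes, 1 complex III gene, 3 complex IV genes and 2 complex V genes. A few symbols reach past the classical subunits: Atp5s and Atp5sl are not structural parts of the ATP synthase, Cox7a2l helps to join complexes III and IV, and the product of Ndufa4 works with complex IV.

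The study sequenced single CD45+ cells, that is leukocytes, from tibialis anterior muscle injured with cardiotoxin, a snake venom toxin that kills muscle fibres. The control libraries came from Bach1 fl/fl littermates and the knockout libraries from Bach1 fl/fl Lyz2-Cre mice (Bach1-cKO), all of them male, on a C57BL/6J background and 8 to 12 weeks old, so that every group carried the floxed Bach1 alleles. The Lyz2 promoter drives Cre in monocytes, macrophages and neutrophils, and T and NK cells lie outside that target. At 2 and at 4 days post injury (dpi2 and dpi4) 1 library was made per genotype, 4 libraries in all, so no difference below has a replicate check, genotype or day cannot be told apart from the library, and no p-value is given. Intervals are 95% exact intervals that cover the counting of molecules only.

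Oxidative phosphorylation moves electrons from NADH through complex I, coenzyme Q, complex III, cytochrome c and complex IV to oxygen, and complex V uses the proton gradient built on the way to make ATP. The mitochondrial genome encodes a few core subunits, and the nucleus encodes the rest, so each complex apart from complex II is made from both genomes. Inflammatory macrophages are known for their glycolysis, reparative macrophages for their use of respiration, and neutrophils for having few mitochondria.

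Kept cells numbered 3433 to 5721 per library, with medians of 10702 to 15157 UMIs (counted molecules) per cell, and fell into 27 clusters built without the members. Between 2 and 14 barcodes were shared by any pair of libraries. In macrophages, Lyz2, which the Cre insertion disrupts, stood at 8165 counts per 1000000 UMIs (CPM) in control against 13 CPM in Bach1-cKO at dpi2, and 18354 CPM against 24.2 CPM at dpi4, as the labels say. Hmox1, a gene that BACH1 represses, went from 678 to 10514 CPM and from 505 to 7468 CPM. Bach1 itself stood at 123 against 144 CPM and 215 against 229 CPM. Tags from 3′ ends need not cover the deleted exon, and their positions were not examined, so these values do not check the deletion. Cells with a mitochondrial share of 10% or more were removed, 8.10% of barcodes in control and 6.61% in Bach1-cKO at dpi2, and 15.4% and 19.9% at dpi4. The 13 mitochondrial members are the only mitochondrial genes in the tables, so this limit acted directly on them.

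In macrophages the nuclear and the mitochondrial members went opposite ways between the days. The class held 1860 control and 1026 Bach1-cKO cells at dpi2 and 2946 and 2542 at dpi4. Together the nuclear members took 2.14% of macrophage UMIs in control and 2.01% in Bach1-cKO at dpi2, and 1.86% and 1.68% at dpi4. The mitochondrial members took 3.40% and 3.67% at dpi2, and 4.78% and 4.91% at dpi4. The nuclear share was therefore lower and the mitochondrial share higher at dpi4 in both genotypes, and at each day the Bach1-cKO library had the lower nuclear and the higher mitochondrial share. The log2 ratio of dpi4 to dpi2 was −0.20 (−0.21 to −0.20) for the nuclear set and 0.49 (0.49 to 0.50) for the mitochondrial set in control, and −0.26 (−0.26 to −0.25) and 0.42 (0.42 to 0.42) in Bach1-cKO. The log2 ratio of Bach1-cKO to control was −0.09 (−0.10 to −0.09) and 0.11 (0.11 to 0.12) at dpi2, and −0.15 (−0.15 to −0.14) and 0.04 (0.04 to 0.04) at dpi4. With a 5% mitochondrial limit, the last of these mitochondrial ratios became −0.08 and the mitochondrial ratio of dpi4 to dpi2 became 0.28 in control and 0.10 in Bach1-cKO. The share of barcodes over the 10% limit was also higher at dpi4 in both genotypes, and its part in the mitochondrial result was not tested.

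**Figure D1:**
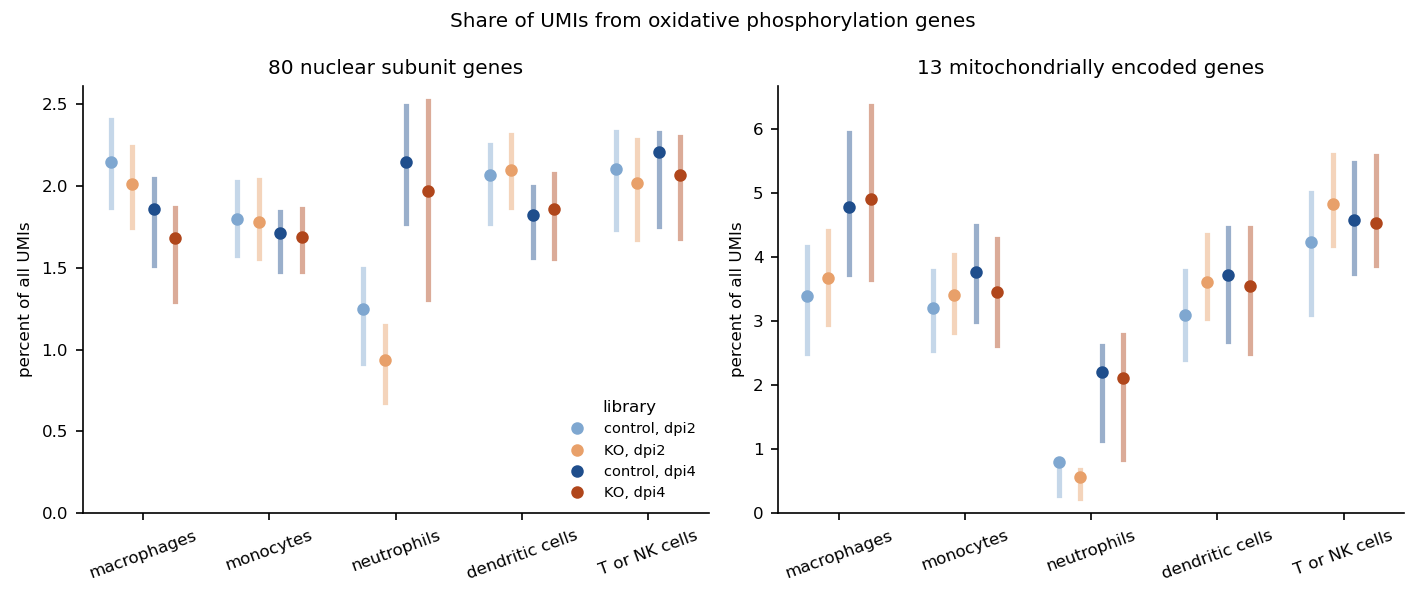
Share of UMIs (percent, vertical axis from 0) taken by the 80 nuclear members (left) and the 13 mitochondrially encoded members (right) in 5 leukocyte classes, with a point for the summed UMIs of each of the 4 libraries and a vertical line over the middle 50% of that library's cells (KO is Bach1-cKO). Neutrophils at dpi2 have the lowest mitochondrial shares, 0.803% and 0.574%, and the lines show the spread of cells, not an error of the points.

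Across leukocyte classes, the nuclear share ranged less than the mitochondrial share. Neutrophils at dpi2 stood lowest on both, with 1.2496% nuclear and 0.803% mitochondrial UMIs in control and 0.937% and 0.574% in Bach1-cKO. Their nuclear members were lower than in macrophages by log2 ratios of −0.78 in control and −1.10 in Bach1-cKO, and their mitochondrial members by −2.08 and −2.68. Monocytes at dpi2 had 1.80% and 1.78% nuclear UMIs and 3.20% and 3.42% mitochondrial UMIs. Dendritic cells at dpi2 had 2.07% and 2.09% nuclear and 3.10% and 3.62% mitochondrial UMIs. T or NK cells at dpi2 had the highest mitochondrial shares, 4.24% and 4.83%, beside nuclear shares of 2.10% and 2.02% that lay close to those of macrophages. In control at dpi2, the nuclear order was macrophages, T or NK cells, dendritic cells, monocytes and neutrophils, and the first pair differed by a log2 ratio of −0.03 (−0.06 to 0.00), within its counting interval.

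The few neutrophils left at dpi4, 128 in control and 35 in Bach1-cKO, did not share the low levels of dpi2. Their nuclear shares were 2.14% and 1.97%, and their mitochondrial shares 2.21% and 2.12%. Of the nuclear members, 48 of 66 compared were at least 1.5-fold higher than at dpi2 in control and 51 of 68 in Bach1-cKO, where 19.8% and 17.1% of all genes compared were. The log2 ratio of dpi4 to dpi2 was 0.78 for the nuclear and 1.46 for the mitochondrial set in control, and 1.07 and 1.88 in Bach1-cKO. Scaled by TMM factors, which set the bulk of genes to no difference, these became 0.38 and 1.06 in control and 0.36 and 1.18 in Bach1-cKO, with 22 and 15 nuclear members past 1.5-fold, where 6.93% and 4.15% of all genes were under the same scaling. In these cells the UMI share of the 12 macrophage markers went from 0.0646% to 0.358% in control and from 0.0519% to 0.277% in Bach1-cKO, and the share of the 10 neutrophil markers from 5.64% to 3.73% and from 7.78% to 3.80%. Macrophages held 4.14% and 3.39% of the same macrophage markers at dpi4. The part of these cells' other RNA in the result was not tested.

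Of the macrophage and monocyte clusters with at least 20 cells on both days, the nuclear share was lower at dpi4 in 3 of 5 in control, with log2 ratios from −0.23 to 0.05, and in 4 of 4 in Bach1-cKO, from −0.40 to −0.05. The mitochondrial share was higher in 5 of 5 in control, from 0.23 to 0.42, and in 3 of 4 in Bach1-cKO, from −0.03 to 0.44.

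By complex, the nuclear members of macrophages at dpi4 lay below dpi2 in each of the 4 complexes and in both genotypes. A gene was compared where a pair of libraries held 50 or more of its UMIs, which 75 of the 80 nuclear members and all 13 mitochondrial members did. It was counted as 1.5-fold higher or lower where its ratio reached that size and the counting interval left out 1. Complex I, the entry point for NADH, had a median log2 ratio of −0.38 in control and −0.35 in Bach1-cKO over 36 members, with 29 and 30 of them below 1. Complex III, which passes electrons to cytochrome c, had medians of −0.17 and −0.33 over 8 members. Complex IV, which reduces oxygen, had medians of −0.16 and −0.33 over 14 members, and complex V, the ATP synthase, −0.37 and −0.33 over 17. Over all genes compared the medians were −0.07 and −0.05. Past 1.5-fold, 13 nuclear members were lower in control and 14 in Bach1-cKO, and 4 and 3 were higher. Among all genes 18.2% and 15.4% were lower by that much and 17.4% and 17.1% higher, so the share of nuclear members past 1.5-fold downward was near the background. A ratio below 1 was found for 58 of 75 nuclear members in each genotype, and for 54.7% and 53.2% of all genes.

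Of the 75 nuclear members, 9 were at least 1.5-fold lower at dpi4 in both genotypes, and 3 were at least 1.5-fold higher, where 11.4% and 11.6% of all genes compared in both were. The 9 lower members were thus near the background share. The 9 were Ndufa11, Ndufa12, Ndufb6, Ndufc1 and Ndufs4 of complex I, Cox6a1 and Cox7a1 of complex IV, and Atp5b and Atp5g1 of complex V, and the 3 were Cox7a2l, Uqcrh and Atp5sl. The genotypes shared no control sample in this comparison, but all 4 libraries were clustered together.

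The upstream sequences of 6 of these 12 members are shown: Cox7a2l, Uqcrh and Cox7a1 as ends of the comparison between the days, Atp5g1 for the c-ring genes described below, and Cox6a1 and Ndufa11 as the 2 of the 9 lower members with an NRF1 match, picked after the matches were seen. Of the 80 nuclear members, 63 matched a promoter by symbol in the RefSeq table of GRCm38.p6, with 68 windows in all. Each window reached from 250 bases before to 50 bases after an annotated start, and a gene was counted where any of its windows held a match. Members without an entry included Atp5a1, Atp5f1, Atp5s, Atp5sl, Cox4i1, Cox4i2, Cox6a2, Cox6c, Cox8c, Ndufa2, Ndufa4l2, Ndufb9, Ndufs1, Uqcrb, Uqcrc2 and Uqcrq. Capitals mark matches, on either strand, to the motifs searched, which were GCGC followed by any 2 bases and GCGC (NRF1), CCGGAAG (ETS factors), TCAAGGTCA (ERR), TGACNNNGC (antioxidant response element), TGCTGA followed by any base and TCA (Maf recognition element, which BACH1 and its partners bind) and TGACGTCA (CRE). The window of Cox7a2l lies at chr17:83514284-83514583 on the minus strand, around a start inside the gene span given below. The window of Uqcrh lies at chr4:116075021-116075320 on the minus strand, that of Cox7a1 at chr7:30183921-30184220 on the plus strand, that of Atp5g1 at chr11:96075582-96075881 on the minus strand, that of Cox6a1 at chr5:115348909-115349208 on the minus strand and that of Ndufa11 at chr17:56717512-56717811 on the plus strand.
Cox7a2l: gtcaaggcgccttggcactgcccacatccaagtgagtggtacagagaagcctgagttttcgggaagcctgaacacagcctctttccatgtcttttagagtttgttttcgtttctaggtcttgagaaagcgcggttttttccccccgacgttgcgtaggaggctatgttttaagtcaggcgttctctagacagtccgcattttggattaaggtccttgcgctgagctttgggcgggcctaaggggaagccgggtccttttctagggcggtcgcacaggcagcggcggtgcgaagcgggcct
Uqcrh: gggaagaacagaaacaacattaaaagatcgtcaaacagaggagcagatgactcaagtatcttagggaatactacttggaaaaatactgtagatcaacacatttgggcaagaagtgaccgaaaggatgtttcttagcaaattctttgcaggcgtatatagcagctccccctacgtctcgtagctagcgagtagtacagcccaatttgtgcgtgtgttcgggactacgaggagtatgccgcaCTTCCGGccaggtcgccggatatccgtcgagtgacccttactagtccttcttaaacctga
Cox7a1: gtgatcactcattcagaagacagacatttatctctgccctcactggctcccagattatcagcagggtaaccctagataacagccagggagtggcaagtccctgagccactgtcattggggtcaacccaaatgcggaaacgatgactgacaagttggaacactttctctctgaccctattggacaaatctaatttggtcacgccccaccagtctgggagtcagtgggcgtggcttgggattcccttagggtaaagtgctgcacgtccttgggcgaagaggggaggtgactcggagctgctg
Atp5g1: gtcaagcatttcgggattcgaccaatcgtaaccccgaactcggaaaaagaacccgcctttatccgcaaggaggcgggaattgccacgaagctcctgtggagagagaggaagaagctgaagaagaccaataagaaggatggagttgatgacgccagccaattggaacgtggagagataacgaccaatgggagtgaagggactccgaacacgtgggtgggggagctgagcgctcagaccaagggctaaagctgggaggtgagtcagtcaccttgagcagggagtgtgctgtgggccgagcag
Cox6a1: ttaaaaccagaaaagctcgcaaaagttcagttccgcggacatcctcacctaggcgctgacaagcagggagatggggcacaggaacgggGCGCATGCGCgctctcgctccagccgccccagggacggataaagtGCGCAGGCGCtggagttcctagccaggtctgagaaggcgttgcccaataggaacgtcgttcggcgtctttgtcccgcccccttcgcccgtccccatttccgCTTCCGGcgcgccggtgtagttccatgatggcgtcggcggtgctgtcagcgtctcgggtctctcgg
Ndufa11: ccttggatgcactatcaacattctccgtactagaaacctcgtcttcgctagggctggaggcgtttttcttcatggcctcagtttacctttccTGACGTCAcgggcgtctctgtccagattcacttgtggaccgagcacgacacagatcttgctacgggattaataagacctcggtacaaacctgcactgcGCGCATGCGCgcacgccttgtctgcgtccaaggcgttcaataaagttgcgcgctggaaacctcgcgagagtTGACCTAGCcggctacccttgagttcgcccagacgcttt

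Cox7a2l and Uqcrh were higher at dpi4, and the other 4 were lower. Uqcrh held 1 ETS match, Cox6a1 held 2 NRF1 matches and 1 ETS match, and Ndufa11 held 1 match each for NRF1, the antioxidant response element and CRE. Cox7a2l, Cox7a1 and Atp5g1 held no match to the 6 motifs in these windows. Over the 63 members, an NRF1 match was found for 16 (25.4%), against 7% of the 27025 genes with a promoter, and an ETS match for 14 (22.2%) against 9.93%. NRF1 and the ETS factor GABP are known regulators of respiratory chain genes. CRE matched 4 members (6.35%) against 2.03% of genes, ERR 1 (1.59%) against 0.466%, and the antioxidant response element 9 (14.3%) against 14%. The Maf recognition element was found in none of the 63 members and in 0.492% of all genes. The paper also names the TRE motif (TGACTCA or TGAGTCA) as a BACH1-binding element, and that motif was not searched. Its letters occur unmarked in the printed windows of Uqcrh (tgactca) and Atp5g1 (tgagtca). A match is a description of letters and not of binding. Members and all genes were not matched for the base composition of their windows, and its part in these shares was not tested. Among the 9 members lower at dpi4 in both genotypes, 2 held an NRF1 and 2 an ETS match, shares of 22.2% each.

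Cox7a2l had the highest log2 ratio of dpi4 to dpi2 among the members compared in macrophages. It lies on chromosome 17 (83501918 to 83517330, minus strand, mm10), and stood at 135 CPM in control and 123 CPM in Bach1-cKO at dpi2, and at 382 and 330 CPM at dpi4. Both dpi4 libraries were above both dpi2 libraries, by log2 ratios of 1.5 (1.45 to 1.54) in control and 1.43 (1.38 to 1.48) in Bach1-cKO. Macrophages of the 2 days fell mostly into different clusters, 0 and 9 at dpi2 and mainly 3, 4, 7, 8 and 10 at dpi4. In the 3 macrophage clusters with at least 20 cells of every library, Cox7a2l was also higher at dpi4, by 0.44, 0.82 and 0.69 in clusters 0, 8 and 14 of control and by 0.67, 0.77 and 0.90 in Bach1-cKO. These values were smaller than those over all macrophages. Dendritic cells had 249 and 235 CPM of Cox7a2l at dpi2 and 453 and 447 CPM at dpi4.

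Uqcrh, the hinge protein of complex III (chromosome 4, 116066965 to 116075071, minus strand), stood at 333 and 329 CPM in macrophages at dpi2 and at 557 and 495 CPM at dpi4. The log2 ratios were 0.74 (0.71 to 0.77) in control and 0.59 (0.55 to 0.62) in Bach1-cKO. It was higher at dpi4 within clusters 0, 8 and 14 as well, by 0.19 to 0.38 in control and 0.11 to 0.40 in Bach1-cKO, with the intervals of clusters 0 and 8 in Bach1-cKO including 0. Atp5sl, whose product is not a structural part of complex V, stood at 8.38, 6.82, 15.5 and 13.1 CPM in the control and Bach1-cKO libraries of dpi2 and then of dpi4. Of the lowly counted members, Cox6b2, a testis isoform of complex IV, had a log2 ratio of 1.32 (0.95 to 1.71) in control and 0.46 (0.05 to 0.87) in Bach1-cKO on only 75 to 281 UMIs per library.

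Cox7a1, the heart and muscle isoform of a complex IV subunit (chromosome 7, 30184144 to 30186078, plus strand), had the lowest log2 ratio of dpi4 to dpi2. It stood at 22.5 and 19.8 CPM at dpi2 and at 8.38 and 7.73 CPM at dpi4, log2 ratios of −1.43 (−1.59 to −1.26) in control and −1.36 (−1.55 to −1.16) in Bach1-cKO. In control its ratio in clusters 0, 8 and 14 was −0.08, 0.64 and −0.14, with every interval including 0. In Bach1-cKO it was −1.20 (−2.22 to −0.35) on 11 UMIs at dpi4, −0.56 and −0.22, and in clusters 8 and 14 the intervals included 0. Its common partner Cox7a2 stood at 508, 462, 375 and 332 CPM, and Cox7a1 made up 4.25% and 4.11% of the UMIs of the pair at dpi2 and 2.19% and 2.27% at dpi4. Muscle fibre markers, where Cox7a1 is known, summed to 0.00189% and 0.00148% of macrophage UMIs at dpi2 and to 0.00748% and 0.00520% at dpi4, and their part in the result was not tested.

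**Figure D2:**
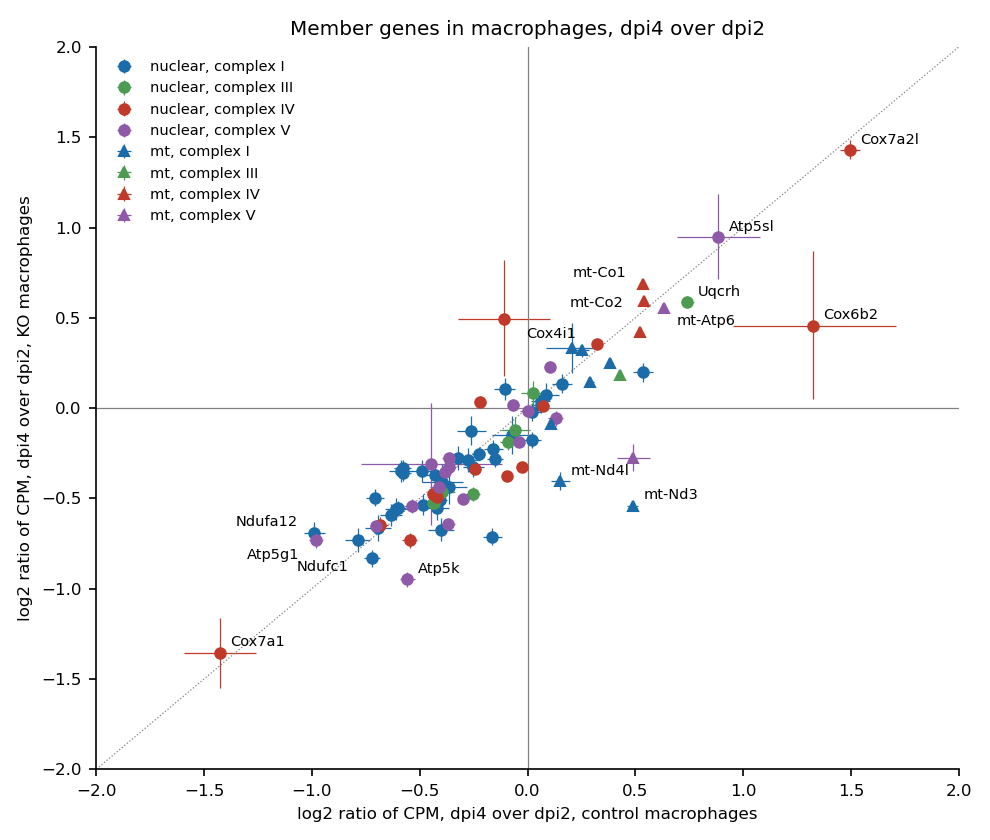
Log2 ratio of CPM between dpi4 and dpi2 in macrophages for each compared member, control on the horizontal and Bach1-cKO (KO) on the vertical axis, coloured by complex, with circles for nuclear and triangles for mitochondrial members and lines for 95% counting intervals. Cox7a2l (1.5 and 1.43) and Cox7a1 (−1.43 and −1.36) lie at the ends, and mt-Nd3 (0.49 and −0.54) lies off the dotted line of equal ratios.

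The genes Atp5g1, Atp5g2 and Atp5g3 encode the same c-ring subunit of the ATP synthase, and their mix differed between the days. Atp5g1 (chromosome 11, 96068852 to 96075670, minus strand) stood at 451 and 364 CPM in macrophages at dpi2 and at 229 and 219 CPM at dpi4. Its log2 ratio of dpi4 to dpi2 was −0.98 (−1.02 to −0.95) in control and −0.73 (−0.77 to −0.69) in Bach1-cKO. Atp5g2 stood at 509 and 456 CPM at dpi2 and at 546 and 534 CPM at dpi4, and Atp5g3 at 322 and 349 CPM and then at 222 and 240 CPM. Tags come from 3′ ends, once per molecule, so these counts need no length scaling. Of the UMIs of the 3 genes, Atp5g1 made up 35.2% (34.8% to 35.6%) and 31.1% (30.6% to 31.6%) at dpi2 and 22.9% (22.6% to 23.3%) and 22.0% (21.7% to 22.4%) at dpi4. The share of Atp5g2 was 39.7% and 39.0% at dpi2 and 54.8% and 53.8% at dpi4. Dendritic cells had nearly the same mix, with 36.2% and 35.5% Atp5g1 at dpi2 and 26.0% and 25.5% at dpi4. Within macrophage clusters 0, 8 and 14, Atp5g1 was lower at dpi4 by −0.33, −0.69 and −0.50 in control and −0.13, −0.77 and −0.70 in Bach1-cKO, and the interval of cluster 0 in Bach1-cKO included 0.

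Ndufa12, an accessory subunit of complex I (chromosome 10, 94198720 to 94221443, plus strand), stood at 202 and 161 CPM at dpi2 and at 102 and 100 CPM at dpi4. Its log2 ratio was −0.99 (−1.04 to −0.94) in control and −0.69 (−0.75 to −0.63) in Bach1-cKO. Ndufb6 and Ndufc1, other accessory subunits, had ratios of −0.79 and −0.72 in control and −0.73 and −0.83 in Bach1-cKO. Atp5b, the catalytic beta subunit, went from 506 and 469 CPM to 311 and 298 CPM. Atp5k, which encodes the small e subunit, stood at 381, 376, 259 and 195 CPM and was lower by −0.95 (−0.99 to −0.91) in Bach1-cKO. The 5 nuclear members with the most UMIs in macrophages, Cox4i1, Atp5e, Cox8a, Atp5l and Cox7c, held 18.3% of the nuclear set in both libraries of dpi2 and 21.6% and 20.7% at dpi4. Cox4i1 alone stood at 968 and 864 CPM at dpi2 and at 1211 and 1105 CPM at dpi4, against the direction of its complex.

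Lists of other mitochondrial genes in macrophages ranged from clearly lower at dpi4 to close to the median of all genes, which was −0.07 in control and −0.05 in Bach1-cKO. The list of 14 complex I assembly genes included Ndufab1, itself a subunit, which the symbol rule does not reach. Of these 14, 9 were at least 1.5-fold lower in control and 5 in Bach1-cKO, where 18.2% and 15.4% of all genes were, with median log2 ratios of −0.75 and −0.51. Ndufaf4 had ratios of −1.08 (−1.21 to −0.96) and −1.02 (−1.16 to −0.87). Of 76 mitochondrial ribosome genes compared, 28 and 17 were at least 1.5-fold lower and none higher, against the same shares of all genes, with medians of −0.52 and −0.39. Of the 6 electron carrier genes, Cycs (cytochrome c), Cyc1 (cytochrome c1 of complex III, which the symbol rule does not reach) and Etfb were lower in both genotypes past 1.5-fold, and the other 3 did not pass 1.5-fold. Cycs was lower by −1.38 (−1.43 to −1.32) and −1.33 (−1.39 to −1.27). The 12 TCA cycle genes had medians of −0.46 and −0.42, with Idh3a and Mdh2 past 1.5-fold in both genotypes. Of 21 assembly factors of complexes III and IV, 7 were at least 1.5-fold lower in each genotype, with medians of −0.47 and −0.40. The 4 genes of complex II, all nuclear, had medians of −0.14 and −0.01 and none past 1.5-fold. Among 5 genes listed for assembly and inhibition of the ATP synthase, of which Usmg5 encodes a subunit, 2 and 1 were lower past 1.5-fold, with medians of −0.21 and −0.09. Regulators of mitochondrial gene expression had 4 of 14 compared lower in each genotype and medians of −0.13 and −0.17, and carrier and uncoupling genes 0 and 1 of 7, with medians of −0.14 and −0.19. Ucp2 and Idh3g in control and Mterf4 in Bach1-cKO were at least 1.5-fold higher. Surf1, a complex IV assembly factor, was higher by 1.08 (0.95 to 1.22) and 1.02 (0.87 to 1.18).

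Between the genotypes, most nuclear members of macrophages lay slightly below 1. At dpi2, 60 of 75 had a ratio of Bach1-cKO to control below 1, where 52.7% of all genes did, and at dpi4 70 of 75, where 47.6% did. The medians were −0.10 at dpi2 and −0.13 at dpi4, against −0.02 and 0.01 over all genes. A ratio below 1 at both days was found for 58 of 75 nuclear members (77.3%) and for 28.9% of all genes. The differences were small. At dpi2 only Cox6a2 was at least 1.5-fold lower and no nuclear member was higher, where 5.99% of all genes were lower and 5.35% higher. At dpi4 no member passed 1.5-fold in either direction, where 4.24% and 3.19% of all genes did. T or NK cells, which Lyz2-Cre does not target, also had lower nuclear shares in Bach1-cKO, by −0.06 (−0.11 to −0.00) at dpi2 on 102 and 36 cells and −0.09 (−0.13 to −0.06) at dpi4 on 79 and 132 cells, and 28 of 65 nuclear members (43.1%) lay below 1 on both days, where 29.3% of all genes did. In cluster 17 of the T or NK cells the dpi2 interval spanned 0, at −0.03 (−0.10 to 0.04). Dendritic cells had slightly higher nuclear shares in Bach1-cKO, by 0.02 (0.01 to 0.03) and 0.03 (0.02 to 0.04). Of their nuclear members, 4 of 73 (5.48%) lay below 1 on both days, where 20.5% of all genes did. At dpi4 the endothelial-like cluster 23 stood at −0.20 (−0.24 to −0.17) and the satellite cell-like cluster 22 at 0.03 (0.01 to 0.06).

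The same direction was seen within most clusters. Of the macrophage and monocyte clusters with at least 20 cells in both libraries, the nuclear share was lower in Bach1-cKO in 6 of 8 at dpi2, with log2 ratios from −0.14 to 0.03, and in 8 of 9 at dpi4, from −0.26 to 0.09. The macrophages of dpi4 were not spread alike, since cluster 3 held 32.8% of them in control and cluster 7 held 34.1% in Bach1-cKO. Cluster 7, led by Slc40a1, Vcam1 and Spic, had nuclear shares of 1.58% in control (69 cells) and 1.40% in Bach1-cKO (868 cells). Ribosomal protein genes moved along, since genes with Rpl and Rps symbols held 13% and 12.1% of macrophage UMIs at dpi2 and 14.9% and 11.9% at dpi4. Their part in the result was not tested.

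The members at the ends of the genotype comparison in macrophages were few and small. At dpi2 the lowest well-counted ratios were those of Cox6a2 at −1.11 (−1.43 to −0.80), Ndufa12 at −0.33 (−0.38 to −0.27) and Atp5g1 at −0.31 (−0.35 to −0.28), and the highest those of Ndufb2 at 0.20 (0.13 to 0.26), Ndufa3 at 0.18 (0.13 to 0.23) and Atp5s at 0.14 (−0.20 to 0.48). Cox6a2 stood at 8.65 and 4.0 CPM at dpi2 and at 8.02 and 5.64 CPM at dpi4, so it was lower in Bach1-cKO on both days. The muscle fibre marker shares of macrophages, given above, were also lower in Bach1-cKO on both days, and their part in the Cox6a2 result was not tested. At dpi4 the lowest were Cox6b2 at −0.55 (−0.84 to −0.27), Cox6a2 at −0.51 (−0.73 to −0.28) and Atp5k at −0.41 (−0.45 to −0.37), and the highest Atp5s at 0.28 (−0.04 to 0.60), Cox5a at 0.13 (0.11 to 0.16), which turned to −0.0022 with each library clustered by itself, and Atp5g3. Ndufa3 changed sides, from 205 against 233 CPM at dpi2 to 183 against 142 CPM at dpi4. Atp5g3 was the only one of the c-ring genes above 1 on both days, by 0.12 (0.08 to 0.16) and 0.11 (0.07 to 0.15), but the dpi4 value turned to −0.029 with each library clustered by itself. In monocytes at dpi2 no nuclear member passed 1.5-fold in either direction, where 5% of all genes were higher and 6.72% lower, and the ends were Cox7a1 at −0.46 (−0.92 to −0.01), Ndufb10 at −0.27 and Ndufa9 at −0.27, against Ndufa3 at 0.28, Ndufb2 at 0.25 and Ndufa1 at 0.22. Ndufa3 and Ndufb2 were thus on the higher end in macrophages and in monocytes at dpi2. Clusters 1 and 6 held 54.9% and 29.2% of control and 27.1% and 26.2% of Bach1-cKO monocytes, cluster 16 held 12.4% and 2.61%, and cluster 12 held 3.57% and 44.0%.

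Neutrophils of Bach1-cKO at dpi2 had lower values for almost every member, and so did most other genes. Of 68 nuclear members compared, 66 had a ratio below 1, where 76.2% of all genes did, and 16 nuclear and 2 mitochondrial members (mt-Nd4l and mt-Atp6) were at least 1.5-fold lower, where 21.3% of all genes were. No member was 1.5-fold higher, where 4.79% of all genes were. The nuclear median was −0.43 and that of all genes −0.30. Scaling by TMM factors moved the nuclear set from −0.42 to −0.05 and the mitochondrial set from −0.48 to −0.12. Neutrophils had medians of 2308 and 3422 UMIs per cell, against 18648 and 27098 in macrophages. Ndufa8, an accessory subunit of complex I, stood at 95.1 and 44.3 CPM, a log2 ratio of −1.10 (−1.45 to −0.75). Ndufb11 stood at 93.8 and 48.3 CPM and Ndufs6 at 104 and 57.7 CPM. At the other end of the members with 200 UMIs, Ndufv3 had a ratio of −0.02 (−0.37 to 0.34), Ndufa3 one of −0.10 (−0.30 to 0.10) and Ndufb6 one of −0.10 (−0.43 to 0.23).

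Against macrophages of the same libraries, the neutrophil deficit at dpi2 was uneven across members. In control 50 of 75 nuclear members were at least 1.5-fold lower in neutrophils, where 42.1% of all genes were, and in Bach1-cKO 63 of 75, where 56.2% were. Ndufa5 was lower by −3.33 (−4.02 to −2.72) in control and −4.37 (−5.11 to −3.73) in Bach1-cKO. Atp5g1 stood at 94.5 and 78.2 CPM in neutrophils against 451 and 364 CPM in macrophages. Cox8a stood at 894 and 678 CPM against 763 and 700 CPM, with ratios of 0.23 (0.15 to 0.31) and −0.05 (−0.11 to 0.02), and Ndufa7 had ratios of 0.16 (0.03 to 0.29) and 0.01 (−0.09 to 0.12). Of the mitochondrial members, 12 of 13 and 13 of 13 were at least 1.5-fold lower, mt-Co1 standing at 964 and 668 CPM against 6209 and 5877 CPM.

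The mitochondrial members of macrophages were higher at dpi4 for 13 of 13 genes in control and 9 of 13 in Bach1-cKO, where 45.3% and 46.8% of all genes had a ratio above 1. With a 5% mitochondrial limit mt-Nd1 and mt-Nd4l in control, and mt-Cytb, mt-Nd2 and mt-Nd4 in Bach1-cKO, turned to below 1. Past 1.5-fold were mt-Atp6 in control, and mt-Co1 and mt-Co2 in Bach1-cKO. mt-Co1, the catalytic subunit of complex IV (mitochondrial genome, 5328 to 6872), stood at 6209 and 5877 CPM at dpi2 and at 9001 and 9474 CPM at dpi4. mt-Atp6, the proton channel subunit of complex V, stood at 5606 and 6038 CPM and at 8694 and 8852 CPM. mt-Atp6 and mt-Atp8 overlap between 7927 and 7969, and mt-Nd4l and mt-Nd4 between 10167 and 10173, so reads there cannot be given to one gene, and nuclear copies of mitochondrial sequence add further doubt. The 4 members below 1 in Bach1-cKO were mt-Nd3 (−0.54), mt-Nd4l (−0.40), mt-Atp8 (−0.27) and mt-Nd1 (−0.09). In monocytes, of which only 53 and 67 were left at dpi4, the mitochondrial set was higher at dpi4 by 0.24 in control and 0.02 (−0.00 to 0.04) in Bach1-cKO. In dendritic cells these ratios were 0.26 and −0.03, and in T or NK cells 0.11 and −0.09. The macrophage marker share of monocyte UMIs went from 0.391% at dpi2 to 1.29% at dpi4 in control and from 0.434% to 0.833% in Bach1-cKO. The monocyte marker share went from 1.40% to 0.967% and from 1.30% to 1.13%. The part of these shifts in the monocyte result was not tested.

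**Figure D3:**
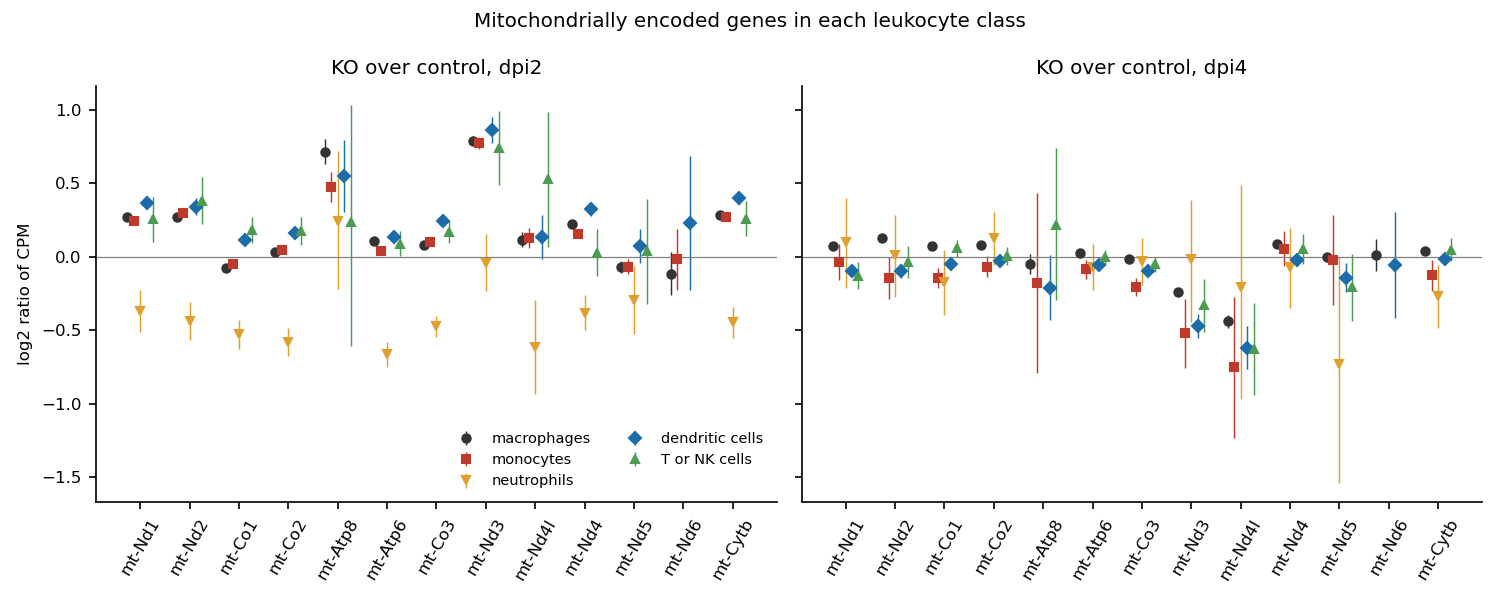
Log2 ratio of CPM between Bach1-cKO (KO) and control (vertical axis) for the 13 mitochondrially encoded members (horizontal axis, in genome order) in 5 leukocyte classes where a pair held 50 UMIs, dpi2 on the left and dpi4 on the right, with 95% counting intervals as lines. mt-Nd3 lies between 0.74 and 0.86 at dpi2 and between −0.52 and −0.24 at dpi4 in the 4 classes other than neutrophils.

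Between the genotypes, mt-Nd3 differed in opposite directions on the 2 days, and did so in 4 of the 5 leukocyte classes. mt-Nd3, a core subunit of complex I (9459 to 9806, 348 bases), stood in macrophages at 498 CPM in control and 861 CPM in Bach1-cKO at dpi2, and at 699 and 592 CPM at dpi4. In monocytes it stood at 415, 710, 655 and 457 CPM, in dendritic cells at 392, 713, 558 and 403 CPM, and in T or NK cells at 705, 1177, 863 and 686 CPM, in the same order of libraries. In all 4 classes Bach1-cKO was higher at dpi2 and lower at dpi4. At dpi2 macrophages had a log2 ratio of 0.79 (0.76 to 0.82) and monocytes one of 0.77 (0.74 to 0.81), and the ratio was 0.86 (0.77 to 0.95) in dendritic cells and 0.74 (0.49 to 0.99) in T or NK cells, and in neutrophils −0.04 (−0.23 to 0.15). At dpi4 it was −0.24 (−0.26 to −0.22), −0.52 (−0.76 to −0.28), −0.47 (−0.55 to −0.39) and −0.33 (−0.51 to −0.15) in the same order, and −0.02 (−0.44 to 0.39) in neutrophils. Within macrophage and monocyte clusters with at least 20 cells per library, mt-Nd3 was higher in Bach1-cKO in 8 of 8 at dpi2, by 0.51 to 0.90, and lower in 9 of 9 at dpi4, by −0.68 to −0.12.

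mt-Atp8 (204 bases) was higher in Bach1-cKO macrophages at dpi2 too, at 54.9 against 90.1 CPM, a log2 ratio of 0.71 (0.63 to 0.80), and stood at 77.1 against 74.5 CPM at dpi4. mt-Nd4l (297 bases) stood at 180 against 195 CPM at dpi2 and at 200 against 148 CPM at dpi4, and at dpi4 its log2 ratio in macrophages was −0.44 (−0.48 to −0.40), beside −0.75 (−1.23 to −0.28) in monocytes, −0.62 (−0.77 to −0.47) in dendritic cells and −0.63 (−0.94 to −0.31) in T or NK cells. These 3 are the shortest of the mitochondrial genes. Over the 4 classes other than neutrophils, mt-Nd4l had ratios of 0.12 to 0.53 at dpi2, and the longer mt-Nd1 had 0.24 to 0.37, mt-Nd2 0.27 to 0.38 and mt-Cytb 0.26 to 0.40. The ratio of mt-Co1 in macrophages was −0.08 (−0.09 to −0.07) on the earlier and 0.07 (0.07 to 0.08) on the later day, where a 5% mitochondrial limit turned it to −0.054. At dpi2, mt-Nd1, mt-Nd2, mt-Co2, mt-Co3, mt-Atp6 and mt-Cytb had intervals above 0 in each of the 4 classes other than neutrophils. T and NK cells are not targets of Lyz2-Cre and moved with the myeloid classes here, and with 1 library per group the genotype and the library cannot be told apart.

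The macrophage clusters of dpi4 differed in how much of each genome's members they held, although the members did not enter the clustering. Cluster 13, led by C4b, Chp2, Cp and Fxyd2, had the highest mitochondrial shares of the macrophage clusters, 5.76% in control and 5.99% in Bach1-cKO, and low nuclear shares of 1.59% and 1.33%. It was highest for 12 of the 13 mitochondrial members in control and 11 of 13 in Bach1-cKO, where it was highest for 21.1% and 27.1% of all genes under the same limits. Cluster 14, led by the cell cycle genes Plk1, Kif18b, Ccna2 and Pbk, had nuclear shares of 2.28% and 2.00%, and was highest for 41 of 74 nuclear members in control and 28 of 73 in Bach1-cKO, beside 19.1% and 18.5% of all genes. Its median depth of 30458.5 UMIs was the highest of these clusters in control, and its 25818 UMIs in Bach1-cKO lay just under the 26137 of cluster 8. Cluster 10, led by the interferon response genes Iigp1, Ifi44 and Ifit2, had the lowest mitochondrial value for 7 of 13 members in each genotype, beside 16.2% and 13.9% of all genes. Across these clusters the highest value of a nuclear member exceeded the lowest by a median log2 ratio of 0.76 in control and 0.79 in Bach1-cKO. With clusters 0, 8 and 14 given equal weight, the nuclear ratio of dpi4 to dpi2 was −0.09 in control and −0.23 in Bach1-cKO, and the mitochondrial ratio 0.36 and 0.41. Cell by cell, the nuclear and mitochondrial shares of macrophages were nearly unrelated in rank, with Spearman coefficients of 0.10, −0.01, 0.03 and −0.09 over 1860, 1026, 2946 and 2542 cells of control and Bach1-cKO at dpi2 and then dpi4, where both shares have the cell's total as their base.

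**Figure D4:**
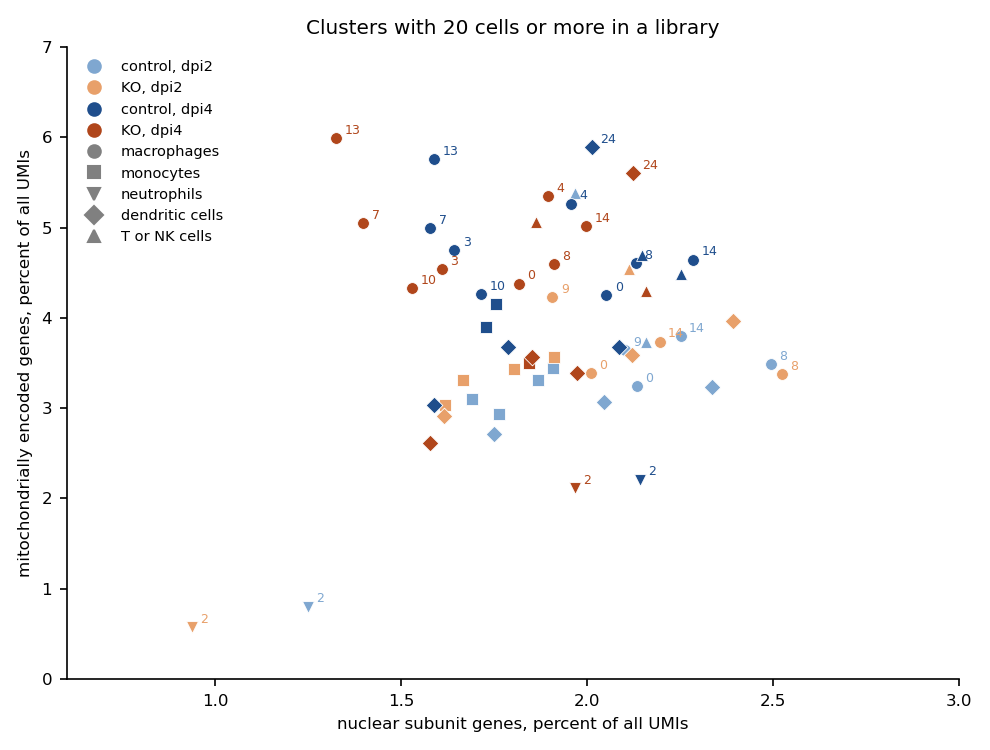
Nuclear share of UMIs (percent, horizontal axis, not starting at 0) against mitochondrial share (percent, vertical axis) for clusters of the 5 named classes with at least 20 cells in a library, 1 point per cluster and library, coloured by library, shaped by class and numbered for macrophages, neutrophils and cluster 24. Cluster 13 lies at 1.59% and 5.76% in control at dpi4, and cluster 14 at 2.28% and 4.65%.

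Some clusters lay outside the 5 classes. Cluster 11, with 88 and 477 cells at dpi2, was led by Rab15, Pdcd1lg2 and Il1f9. It scored highest for the neutrophil markers. It was left unnamed because its UMI counts were low and none of its leading genes was one of those markers. Cluster 11 had neutrophil-like low values, 1.49% and 0.959% nuclear and 0.817% and 0.490% mitochondrial UMIs. Cluster 15, muscle fibre-like by its markers and with 325 and 62 cells at dpi4, held muscle fibre markers at 0.0846% and 0.0607% of UMIs beside macrophage markers, and its nuclear shares of 1.80% and 1.63% and mitochondrial shares of 4.80% and 5.03% were near those of macrophages. Cluster 18, an unnamed set of 31 to 74 shallow cells per library, had nuclear shares from 2.62% to 3.22%. Cluster 22, which was satellite cell-like, had nuclear shares of 2.64% in control and 2.70% in Bach1-cKO at dpi4 and mitochondrial shares of 6.50% and 7.14%.

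Some isoform genes were most abundant in single clusters. Cox6a2, the heart and muscle isoform of a complex IV subunit (chromosome 7, 128205435 to 128206387, minus strand), stood at 681 (539 to 848) and 1203 (1010 to 1423) CPM at dpi2 and at 700 (597 to 816) and 977 (862 to 1102) CPM at dpi4 in cluster 24, control first. This cluster of 15, 11, 22 and 31 cells was led by Dntt, Klk1 and Ccr9, belonged to the dendritic class and held Siglech, a marker of plasmacytoid dendritic cells. All other kept cells had 5.01, 2.44, 7.85 and 5.22 CPM. It was also counted in macrophages, at 8.65 CPM in control at dpi2 with a UMI in 13.3% of cells, and in each of the 8 macrophage clusters compared at dpi4. A Cox6a2 UMI was found in 53.3%, 63.6%, 72.7% and 67.7% of cluster 24 cells, and in 4.84%, 2.67%, 11.1% and 6.85% of all other kept cells. In neutrophils the percentages were 0%, 0.242%, 0% and 0%, with median depths of 2308 to 3422 UMIs against 8005 to 10998 in cluster 24. Of the UMIs of Cox6a1 and Cox6a2 together, Cox6a2 made up 76.0%, 82.4%, 74.1% and 79.9% in cluster 24 and 2.61%, 1.23%, 3.84% and 2.67% in macrophages.

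**Figure D5:**
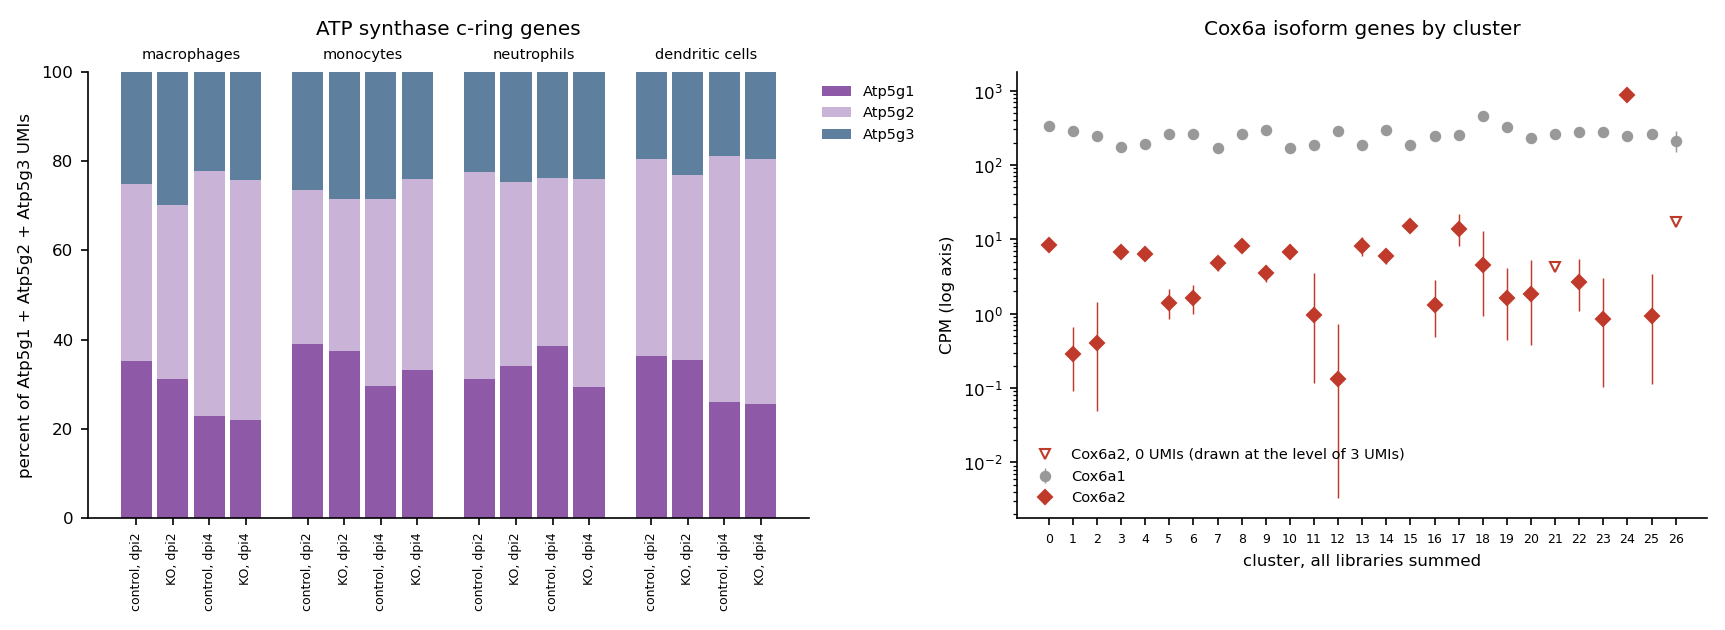
Left, percent of the summed UMIs of Atp5g1, Atp5g2 and Atp5g3 held by each gene, 1 stacked bar per library (KO is Bach1-cKO) in 4 leukocyte classes, where Atp5g1 in macrophages is 35.2% and 31.1% at dpi2 and 22.9% and 22.0% at dpi4. Right, CPM (log axis) of Cox6a1 and Cox6a2 in each cluster with the 4 libraries summed and 95% counting intervals as lines, open triangles marking 0 UMIs at the level of 3 UMIs, where Cox6a2 lies above Cox6a1 in cluster 24.

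Cox4i2, a hypoxia-responsive isoform of the regulatory complex IV subunit, stood at 4.90 (2 UMIs), 41.4, 19.7 and 24.2 CPM in cluster 23, whose markers were endothelial, and at 0.0905 to 0.170 CPM in all other kept cells. Ndufa4l2, a hypoxia-responsive relative of Ndufa4, stood at 66.1, 158, 113 and 108 CPM in cluster 23, where 22.2%, 26.7%, 34.4% and 22.5% of cells had a UMI, and in the fibroblast-like cluster 25 at 16.2 CPM (2 UMIs) in 3 control cells at dpi2, 55.6 CPM in 39 control cells at dpi4 and 12.6 CPM in 15 Bach1-cKO cells at dpi4. Neither was found in neutrophils, 0 UMIs in every library. The CD45+ cells were enriched with magnetic beads, and the libraries held a few endothelial-like and fibroblast-like cells. Cox8c had 0 UMIs and Cox7b2 1 UMI in all kept cells, and Cox8b had 118. In macrophages their partners Cox4i1, Cox8a and Ndufa4 stood at 864 to 1211, 700 to 801 and 322 to 458 CPM.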

How the data were processed

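Leukocytes of 4 libraries were analysed, 1 per genotype and day, grouped as the labels give them. The authors deposited filtered UMI counts per gene and barcode, made with Cell Ranger 6.1.2 on mm10 per the labels. These counts are not normalized, and the lowest barcode total was 500 or 501. The labels name a 3′ v2 protocol and the study's methods a v3.1 kit, and the files do not settle which was used. Libraries held 57010520 to 80228489 UMIs in 4177 to 6602 barcodes.

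Barcodes with a mitochondrial share of 10% or more, or under 500 genes, were removed (scanpy 1.11.5). Doublets were removed by Scrublet rank at 0.8% per 1000 barcodes. Cells of all libraries were clustered together without batch correction on 2000 variable genes, members excluded, with 30 components, 15 neighbours and Leiden resolution 1. Clusters were named from 107 marker genes, a cluster needing at least 3 detected markers. The authors' own annotation was not used here, so classes were rebuilt and may differ from theirs.

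UMIs were summed per library and class. Levels are counts per 1000000 or percent of the class's UMIs, with exact intervals, and a ratio has an exact conditional binomial interval. Genes with 50 UMIs in the pair were compared. No test across libraries was run, since each group is 1 library. Members and lists were chosen with earlier results of these data known. The genes named were drawn from the 13 mitochondrial members, the 3 highest and 3 lowest nuclear ratios per main comparison at 200 UMIs or more, the restricted isoforms with their partners, the 5 nuclear members with the most UMIs, and members past 1.5-fold in both pairs, of which some are given as counts. Other genes named were chosen after their values were seen. The ratio step was tested on simulated data, and edgeR 4.0.16 gave TMM factors. Alternatives were other cell filters, doublets kept, each library clustered alone, other denominators and scalings, cells weighted equally, cycling clusters left out and other fold and count limits.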

Additional observations from a re-analysis of the deposited data

Results flagged for a closer look

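In 4 comparisons the mitochondrially encoded set moved in opposite directions in groups set side by side, and the difference was not tested, since each group is 1 library. Monocytes had a log2 ratio of Bach1-cKO to control of 0.09 (0.09 to 0.10) at dpi2 against −0.12 (−0.15 to −0.09) at dpi4, a difference of −0.22 that rests on 53 and 67 monocytes at dpi4. Of these, cluster 1 held 41.5% in control and 62.7% in Bach1-cKO, and cluster 6 held 37.7% and 14.9%. Macrophage markers took 1.29% and 0.833% of their UMIs. Dendritic cells had a log2 ratio of Bach1-cKO to control of 0.22 (0.21 to 0.23) for dpi2 against −0.07 (−0.08 to −0.06) for dpi4, a difference of −0.29. Seen over time, the same 4 dendritic cell values gave a ratio of dpi4 to dpi2 of 0.26 (0.25 to 0.27) in control and −0.03 (−0.04 to −0.02) in Bach1-cKO, again a difference of −0.29. In T or NK cells the ratio of dpi4 to dpi2 was 0.11 (0.08 to 0.14) in control and −0.09 (−0.13 to −0.06) in Bach1-cKO, a difference of −0.20. Within that class the control ratio was 0.26 in NK cells (cluster 17) and −0.20 in T cells (cluster 21), and NK cells made up 71.6% of the control class at dpi2 and 49.4% at dpi4. The cell cycle marker share in cluster 17 went from 0.00155% to 0.138% in control and from 0.00375% to 0.0541% in Bach1-cKO. Its part was not tested.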

How the results depend on the processing

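Values are log2 ratios, in macrophages unless another class is named, and the cause of a move was not tested unless the setting's own construction gives it. Of 202 alternatives for set ratios and counts, 102 stayed within their counting interval or within 1.5 times, 98 moved and 2 changed sign. With 1 library per group these intervals are narrow. Of 912 alternatives for single members, 885 kept the sign and 27 had the opposite sign, 15 of them for members whose reported interval lay clear of 0.

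A mitochondrial limit of 5%, which cuts the mitochondrial set itself, gave for Bach1-cKO to control at dpi2 −0.080 nuclear and 0.10 mitochondrial, and at dpi4 −0.13 and, with changed sign, −0.076. In monocytes it gave −0.023 and 0.10, in neutrophils −0.26 mitochondrial. For dpi4 to dpi2 it gave 0.28 mitochondrial in control, and −0.25 nuclear and 0.10 mitochondrial in Bach1-cKO. Under it mt-Atp6 (−0.11), mt-Co1 (−0.054), mt-Co2 (−0.026), mt-Cytb (−0.051), mt-Nd1 (−0.027) and mt-Nd4 (−0.012) changed sign between genotypes at dpi4, mt-Nd1 (−0.12) and mt-Nd4l (−0.10) between days in control, and mt-Cytb (−0.13), mt-Nd2 (−0.20) and mt-Nd4 (−0.10) between days in Bach1-cKO. Without a limit, the ratios of Bach1-cKO to control at dpi4 were −0.16 nuclear and 0.10 mitochondrial with 1 member lower past 1.5-fold, the mitochondrial ratio was 0.088 in monocytes and −0.41 in neutrophils at dpi2, and for dpi4 to dpi2 it was 0.53 in control and 0.51 in Bach1-cKO, with −0.27 nuclear in Bach1-cKO. mt-Co3 then changed sign at dpi4 (0.038), and the mitochondrial set of dpi2 stood at −1.96 and −2.48 in neutrophils and −0.10 and −0.13 in monocytes against macrophages, control first.

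Scaling by TMM factors gave −0.050 nuclear and −0.12 mitochondrial in neutrophils, with 2 members higher and 2 lower past 1.5-fold and mt-Nd5 at 0.072, and for dpi4 to dpi2 −0.18 and 0.52 in control and −0.22 and 0.45 in Bach1-cKO. With only nuclear UMIs in the denominator the mitochondrial ratio between genotypes at dpi2 was 0.12, the ratios of dpi4 to dpi2 were −0.18 and 0.51 in control and −0.24 and 0.44 in Bach1-cKO, and neutrophils stood against macrophages at −0.82 and −2.12 in control and −1.15 and −2.72 in Bach1-cKO.

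Each library clustered by itself gave −0.11 and 0.12 between genotypes at dpi2, −0.23 and 0.045 at dpi4, 0.0047 nuclear in monocytes with changed sign, and −0.14 and 0.51 (control) and −0.27 and 0.44 (Bach1-cKO) between days. Atp5g3 (−0.029) and Cox5a (−0.0022) then changed sign at dpi4. With cells weighted equally the mitochondrial ratio was 0.12 at dpi2 and 0.051 at dpi4 beside −0.16 nuclear, 0.10 in monocytes and −0.40 in neutrophils, and between days −0.24 and 0.48 in control and −0.31 and 0.41 in Bach1-cKO. With doublets kept it was −0.088 nuclear at dpi2, 0.033 mitochondrial at dpi4, −0.68 mitochondrial in neutrophils, and −0.19 and 0.50 in control and −0.25 nuclear in Bach1-cKO between days. Without cycling clusters it was 0.13 mitochondrial at dpi2, −0.14 and 0.033 at dpi4, −0.23 and 0.51 in control and −0.27 nuclear in Bach1-cKO. With 200 genes per cell the mitochondrial ratio was 0.034 at dpi4, 0.10 in monocytes and 0.50 between days in control.

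A limit of 25% in place of 1.5-fold, which admits more members by construction, counted 2 lower at dpi2 and 6 lower at dpi4 between genotypes, 2 higher and 1 lower in monocytes, 57 lower in neutrophils, where 34.2% of all genes were, and between days 14 higher and 38 lower in control (25.3% and 31.3% of all genes) and 11 higher and 44 lower in Bach1-cKO (25.8% and 28.7%). Between genotypes 12.3% and 8.81% of all genes were lower in macrophages at dpi2 and dpi4, and in monocytes 10.6% were higher and 12.6% lower. A 2-fold limit counted 0 higher at dpi2 in macrophages and in monocytes, 1 lower in neutrophils, 2 higher and 1 lower in control and 1 higher and 1 lower in Bach1-cKO, where the shares of all genes were, in the same order, 2.27%, 1.83%, 6.76%, 9.69%, 6.03%, 8.91% and 4.99%. The following were chosen after seeing the data. TMM factors gave 0.38 nuclear and 1.06 mitochondrial for dpi4 to dpi2 in control neutrophils, with 22 nuclear members higher past 1.5-fold, and 0.36, 1.18 and 15 in Bach1-cKO. Adding cluster 11 to neutrophils gave −0.57 mitochondrial, and adding cluster 15 to macrophages gave −0.21 nuclear between days in control. Equal weights for clusters 0, 8 and 14 gave −0.089 and 0.36 in control and −0.23 and 0.41 in Bach1-cKO. No paired analysis was possible because the labels give no replicate numbers and each group is 1 library. At this depth members under 50 UMIs in a pair, such as Cox8b and Cox7b2, were not compared.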
